A study of Homo sapiens with 6 samples.

Results

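The peaks described here are those of H3K27ac in 2 clusters of immune receptor genes on chromosome 19. They were taken by position alone. Every peak that overlapped the hg19 window 51600001 to 52150000, which holds the SIGLEC cluster, or the window 54500001 to 55420000, which holds the leukocyte receptor complex, was kept. Inside the complex, the stretch 54540001 to 55180000 is called the LILR part and 55230001 to 55420000 the KIR part. This gave 67 peaks out of 87864 in both lists together, 49 of them in M2 macrophages and 18 in THP-1 cells. Chromosome 19 as a whole, with 2152 M2 and 1248 THP-1 peaks, served as comparison.

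The series profiled M2 macrophages and THP-1 cells by chromatin immunoprecipitation and sequencing, with 6 libraries, 1 per cell type for each of H3K27ac, the transcription factor YY1 and input DNA. H3K27ac is acetylation of lysine 27 of histone H3, a mark of active promoters and enhancers. The M2 cells are labelled as M2 macrophages, the alternatively activated form, with no further treatment, age or donor given, and the labels do not say what they were made from. THP-1 is an established human monocytic leukaemia line, and both cell types were grown in the same serum-containing medium and precipitated with the same H3K27ac antibody. The 2 H3K27ac peak lists were used. With 1 library per cell type the differences have no replicate check, so no p-value is given, and the 95% intervals (exact binomial, Clopper-Pearson) cover counting error only. Peaks that neighbour each other in a list are not independent, which these intervals ignore.

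Siglecs are cell surface lectins that bind sialic acid on glycans, and most of them carry inhibitory motifs in their cytoplasmic tails. CD33 is a marker of the myeloid lineage, SIGLEC7 and SIGLEC9 are found on monocytes and natural killer cells, SIGLEC8 is typical of eosinophils and mast cells, and SIGLEC10 is best known from B cells. LILR proteins are immunoglobulin-like receptors of myeloid and some lymphoid cells. The LILRB members are mostly inhibitory, some of them able to bind HLA class I, and the LILRA members are mostly activating. KIR proteins bind HLA class I too, but belong to natural killer cells and some T cells, and monocytes and macrophages are not their usual place.

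Gene order, but no gene position, could be taken from RefSeq on GRCh38, because no hg19 annotation was used here and peaks were therefore assigned to no gene. In that order the SIGLEC cluster runs SIGLEC9, SIGLEC7, CD33, SIGLEC10, SIGLEC8, SIGLEC12, SIGLEC6, SIGLEC5 and SIGLEC14. Genes of other kinds lie between CD33 and SIGLEC10, among them ETFB, a mitochondrial electron carrier, and NKG7, a granule protein of cytotoxic lymphocytes. In the complex, genes that most cells use, such as PRPF31, CNOT3 and RPS9, come before the receptors. These begin with LILRB3, LILRA6, LILRB5, LILRB2, LILRA5 and LILRA4, then LAIR1, TTYH1, LENG8, CDC42EP5 and LAIR2, then LILRA2, LILRA1, LILRB1 and LILRB4. The KIR genes follow, from KIR3DL3 to KIR3DL2, and after them FCAR, an Fc receptor for IgA on myeloid cells, and NCR1, an activating receptor of natural killer cells. A peak in one of these windows may thus belong to a receptor gene or to one of its neighbours. For the same reason the cell type labels were not checked against marker genes here.

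The gene families arose by duplication, and parts of them are still so alike that a sequencing read may have more than 1 place to go. The bases below show this, for the pair of genes in the SIGLEC and in the KIR family whose promoter windows were most alike. They are the 120 bases upstream of each gene start, 5′ to 3′ on the gene's strand, from RefSeq on GRCh38.p14, with capitals where the 2 genes differ. These positions are on another build than the peaks and cannot be set against them.
SIGLEC5 (chr19:51630402-51630521, minus strand): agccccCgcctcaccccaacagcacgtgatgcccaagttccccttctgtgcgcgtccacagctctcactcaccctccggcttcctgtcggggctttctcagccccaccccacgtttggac
SIGLEC14 (chr19:51646826-51646945, minus strand): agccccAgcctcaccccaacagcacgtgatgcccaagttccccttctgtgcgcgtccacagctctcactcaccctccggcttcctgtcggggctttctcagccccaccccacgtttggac
KIR2DL3 (chr19:54738393-54738512, plus strand): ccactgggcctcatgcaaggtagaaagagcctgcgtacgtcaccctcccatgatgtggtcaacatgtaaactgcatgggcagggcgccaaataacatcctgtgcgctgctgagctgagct
KIR3DL2 (chr19:54850323-54850442, plus strand): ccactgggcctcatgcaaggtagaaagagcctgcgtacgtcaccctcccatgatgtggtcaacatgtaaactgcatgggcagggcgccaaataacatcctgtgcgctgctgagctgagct

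The SIGLEC5 and SIGLEC14 stretches differed at 1 of the 120 bases and those of KIR2DL3 and KIR3DL2 at 0. Promoter windows of 300 bases (250 before the gene start and 50 after it) were found for 9 of 9 SIGLEC genes, 8 of 10 LILR genes and 7 of 7 KIR genes. Among KIR genes the median pair had 83.7% of the window identical after alignment, and 5 of the 7 shared an identical run of at least 50 bases with another family member. The longest such run was 172 bases, longer than a 150 base read. In the SIGLEC family 4 of 9 genes shared such a run, the longest being 163 bases between SIGLEC14 and SIGLEC5. The median SIGLEC pair had identical aligned bases over only 5.17% of the window. Where little of the windows could be aligned, this share is low whatever the identity of the aligned bases. SIGLEC6 and SIGLEC9, at 5%, had 23 aligned bases, of which 15 were identical. The 8 LILR windows shared no run of 50 bases with each other. Their longest was 46 bases, and the most alike pair, LILRA1 and LILRA2, had 82.7% identical. With LILRB3, LILRB4 and LILRB5 these made 5 genes whose windows were 59.7 to 82.7% identical in every pair. The median LILR pair had 4% of the window identical, again with little of it aligned. Counting sharing with the window of any other gene, in the family or not, such a run was found for 4 of 9 SIGLEC, 2 of 8 LILR and 5 of 7 KIR genes, or 44.4, 25 and 71.4%. By the same measure it was found for 19.8% of all 35116 promoter windows and 19.4% of the 1917 on chromosome 19. The treatment of reads with several possible places is not given in the sources. Whether this touched the number of peaks in the windows was not tested.

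Called H3K27ac was far more widespread over the SIGLEC cluster in M2 than in THP-1 cells. The cluster held 32 M2 and 7 THP-1 peaks, a ratio of 4.57 (interval 1.98 to 12.3), where the rest of chromosome 19 had 2103 M2 and 1230 THP-1 peaks and a ratio of 1.71 (1.59 to 1.84). Of its sequence, 36.8 kb lay under M2 peaks and 3.82 kb under THP-1 peaks, which is 6.70% and 0.694% of the window. The covered length was thus 9.64 times as great in M2, against 2.28 times over the rest of the chromosome. Called peaks were denser than in the rest of the chromosome for M2 and sparser for THP-1. The cluster had 58.2 M2 and 12.7 THP-1 peaks per Mb, against 36.5 and 21.4 in the rest. The THP-1 density rests on 7 peaks and has no interval. It describes calls only. In fragments over the summit, as described below, those 7 had a median of 44.8 times the library background, against 31.2 for THP-1 peaks of chromosome 19.

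The excess over the chromosome rested in good part on 1 end of the cluster. With the window narrowed by 50 kb on each side, 21 M2 and 7 THP-1 peaks were left and M2 peaks made up 75% of them (interval 55.1 to 89.3), a range that takes in the 63.1% of the rest of the chromosome. The covered length was then 5.01 times as great in M2. In the full window the M2 share was 82.1% (66.5 to 92.5). When peaks of a list within 1000 bp were merged, 19 M2 and 4 THP-1 peaks remained. The M2 share was then 82.6%, no lower than before merging. With fewer peaks its interval was wider, 61.2 to 95%, and took in the 62.4% of chromosome 19 merged in the same way.

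The leukocyte receptor complex held fewer peaks for its size and no such excess. It had 17 M2 and 11 THP-1 peaks, a ratio of 1.55 (0.683 to 3.65), and the interval takes in both 1 and the ratio of the rest of the chromosome. Under M2 peaks lay 14.1 kb and under THP-1 peaks 6.40 kb, 2.21 times as much in M2. Peak density was 18.5 M2 and 12 THP-1 peaks per Mb, both below the rest of the chromosome. Of these peaks, 15 M2 and 11 THP-1 peaks lay in the LILR part, 1 M2 peak and 0 THP-1 peaks in the KIR part, and 1 M2 peak before the LILR part. When each list was limited to its 31444 peaks of highest -log10 q, the complex held 10 M2 and 11 THP-1 peaks, so that THP-1 peaks were then the more numerous. The SIGLEC cluster had 19 M2 and 7 THP-1 peaks in these lists, an M2 share of 73.1% whose interval (52.2 to 88.4) takes in the 52.5% of chromosome 19, from 1378 M2 and 1248 THP-1 peaks.

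**Figure D1:**
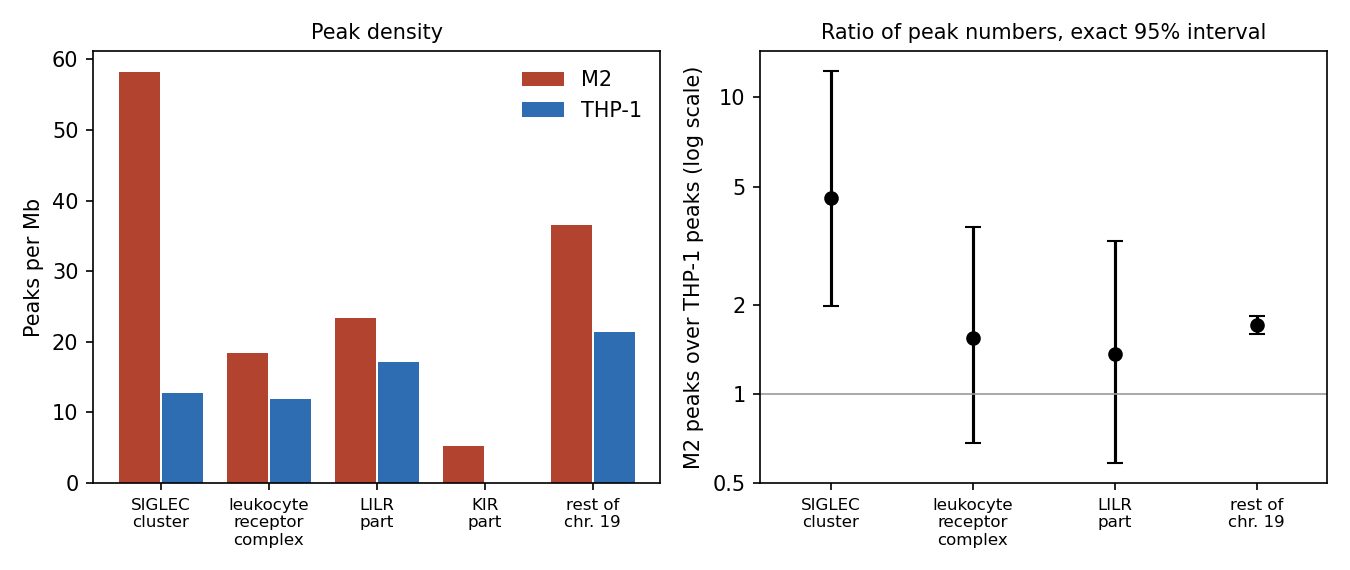
Peaks per Mb in the M2 and THP-1 lists (left, linear axis) and the number of M2 peaks over the number of THP-1 peaks with its exact 95% interval (right, log axis), by window and for the rest of chromosome 19. The SIGLEC cluster stands at 4.57 and the leukocyte receptor complex at 1.55, beside 1.71 for the rest of the chromosome, and the KIR part has no ratio because it held 0 THP-1 peaks.

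An M2 peak in the SIGLEC cluster overlapped a THP-1 peak, by at least 1 bp, in 7 of 32 cases, which is 21.9% (9.28 to 40), beside a background of 44.1% of M2 peaks on chromosome 19. The low share rested on the same end of the cluster as the surplus of peaks. With the window narrowed by 50 kb it was 7 of 21, or 33.3% (14.6 to 57.0), an interval that takes in that background. In the complex it was 6 of 17, or 35.3% (14.2 to 61.7), whose interval takes in that background. Of the THP-1 peaks, 7 of 7 in the SIGLEC cluster (59.0 to 100%) and 7 of 11 in the complex, 63.6% (30.8 to 89.1), overlapped an M2 peak, beside 86.4% on chromosome 19. In the SIGLEC cluster, then, 0 THP-1 peaks stood alone, while in the LILR part 4 did. Both intervals take in the 86.4% of the chromosome, so neither cluster was shown to stand apart from it by this measure.

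The first stretch of the SIGLEC cluster was the most heavily marked, and its H3K27ac was in the M2 list alone. A run of 11 M2 peaks, each within 10 kb of the next, spanned 51611076 to 51643660 and covered 17.7 kb, 0 bp of it shared with THP-1. By covered length it ranked 5 among the 984 such runs of the M2 list on chromosome 19. The next THP-1 peak began 84852 bp beyond its end, and the stretch without a THP-1 peak around it was 404 kb long. In GRCh38 gene order the window begins with SIGLEC9 and SIGLEC7, but the run was not assigned to either.

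At the heart of the run lay a peak from 51622532 to 51630080. It was 7549 bp wide, the widest of the 2152 M2 peaks on chromosome 19, and stood 10.4-fold over its local background, with a -log10 q of 60.3. The fold enrichment and -log10 q of each peak are the authors' deposited values. The second wide peak of the run, at 51639510 to 51643660, measured 4151 bp, ranked 16 by width on the chromosome, and was 6.74-fold enriched with a -log10 q of 49.7. The other 9 peaks of the run were narrower, from 321 to 1521 bp, and weaker, from 3.40- to 5.74-fold, against a median of 5.41-fold for all M2 peaks of the chromosome.

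Between this run and the middle of the cluster called peaks were few in both lists. Between the end of the run and 51842049 the M2 list held 3 peaks, 325 to 513 bp wide. One of them, at 51728291 to 51728803, met a THP-1 peak at 51728512 to 51729503. This was the one site of the cluster where the THP-1 peak was the wider, 513 bp in M2 against 992 bp in THP-1 cells. It was also the weakest M2 peak of the 7 shared ones, 2.99-fold in M2 and 2.28-fold in THP-1. A stretch of 92.1 kb without a peak in either list followed, from 51749978 to 51842049. After it came an M2 peak of 1730 bp and 5.62-fold at 51842050 to 51843779 and a pair of narrow ones, 2.82- and 5.91-fold, none of which overlapped a THP-1 peak.

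The middle of the cluster was where the cell types met. All of the other 6 THP-1 peaks lay between 51869071 and 51898423, in 2 groups, and each was overlapped by an M2 peak. In the first group 4 THP-1 peaks covered 1.97 kb between 51869071 and 51876091, and 4 M2 peaks covered 3.50 kb of the same stretch. The M2 peaks there were 7.20-, 5.39-, 4.64- and 7.28-fold enriched, in order of position, and the THP-1 peaks 2.59-, 2.13-, 1.56- and 2.35-fold. In the second, at 51895434 to 51897499, stood the M2 peak of highest fold in the cluster, 12.4-fold with a -log10 q of 106, higher in fold than 94.9% of the M2 peaks of the chromosome. Its THP-1 partner at 51896915 to 51897331 was 2.29-fold with a -log10 q of 9.61. The summits were 9 bp apart. The remaining pair, at 51897771 to 51898721 in M2 and 51897981 to 51898423 in THP-1, had 6.51- and 1.99-fold enrichment.

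Beyond 51898423 the THP-1 list held 0 peaks to the end of the window, a stretch of 252 kb, and the M2 list went on. Its highest folds there were at 51909977 to 51911893 (1917 bp wide, 8.62-fold), 51963929 to 51964980 (7.79-fold), 52074486 to 52075068 (9.38-fold) and 52097698 to 52098402 (8.31-fold). Those last 2 were narrow, 583 and 705 bp, yet higher in fold than 86.4 and 82.0% of the M2 peaks of the chromosome. They were 116472 and 93138 bp from the nearest THP-1 peak. Between 51964981 and 52074485, a stretch of 109.5 kb, neither list held a peak.

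**Figure D2:**
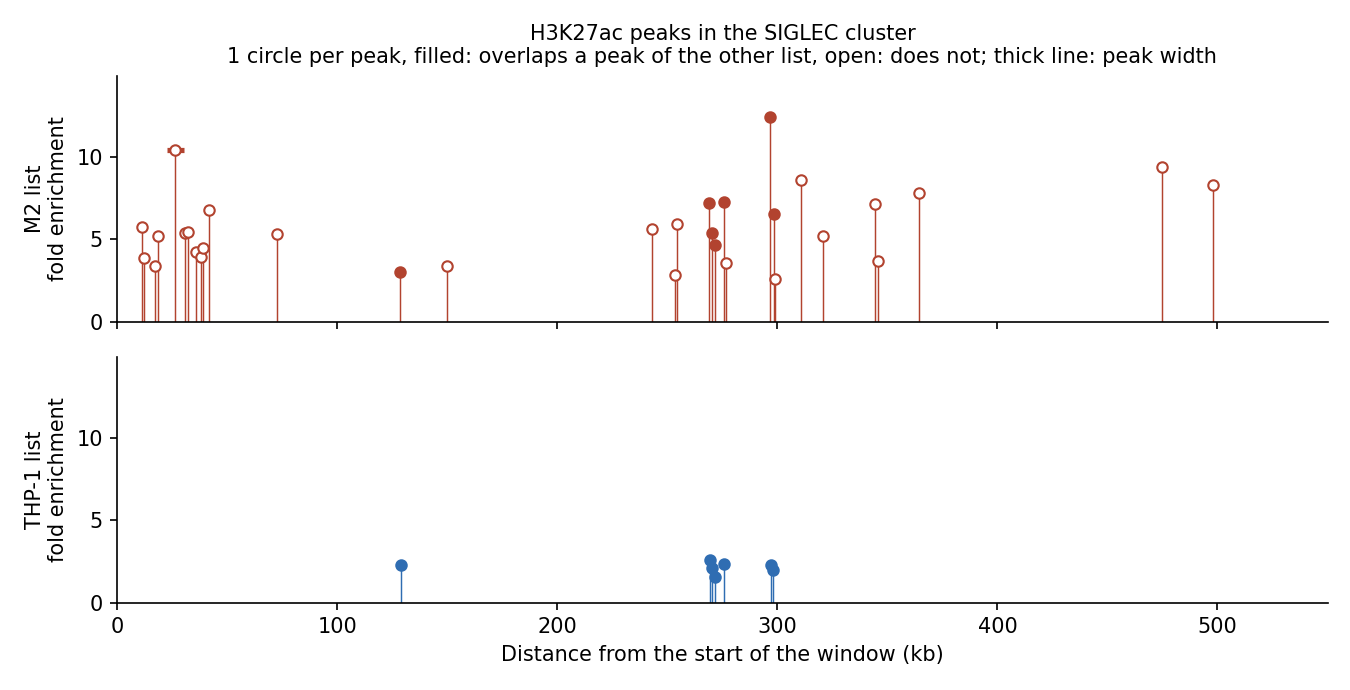
Fold enrichment of each H3K27ac peak (linear axis) against its distance in kb from the start of the SIGLEC window, M2 above and THP-1 below; filled circles overlap a peak of the other list, open circles do not, and the thick line is the width of the peak. The 11 open M2 circles at the left have no THP-1 counterpart, the 7 THP-1 peaks all overlap M2 peaks, and the right side is M2 alone.

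In the LILR part, by contrast, most of the mark of both cell types sat in the same place. A run of 8 M2 peaks spanned 54873978 to 54890540 and covered 6.85 kb, and 7 THP-1 peaks from 54875356 to 54891061 covered 4.40 kb. By covered length the M2 run ranked 50 among 984 on chromosome 19, and the THP-1 run 31 among 661. These peaks lie past the middle of the LILR part, and no gene was assigned to them.

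Within this run the 2 lists differed peak by peak in fold and width. The widest M2 peak of the LILR part, 2246 bp at 54875304 to 54877549, covered 2 THP-1 peaks whole and was 5.82-fold enriched, against 3.16- and 3.01-fold for the THP-1 peaks. At 54880204 to 54881374 an M2 peak of 9.06-fold overlapped a THP-1 peak of 2.54-fold. Just after it an M2 peak at 54881694 to 54882179, 6.79-fold, overlapped none. The M2 peak of highest fold in the LILR part, 9.72-fold at 54884326 to 54885302, overlapped no THP-1 peak, although one lay 378 bp away. Toward the far end of the run the balance of width turned. The M2 peak at 54885683 to 54886062 was 380 bp wide and the one at 54890036 to 54890540 505 bp wide, against 427 and 1039 bp for their THP-1 partners. Both M2 peaks were still higher in fold, 6.20- and 8.36-fold in M2 against 4.34- and 3.74-fold in THP-1. In fragments over the summit, no M2 peak of the run was higher than a THP-1 partner where both could be solved. In units of the library background, as described below, these 2 M2 peaks had 9.56 and 12.2 against 12.5 and 13.0 in THP-1. The M2 peak at 54875304 to 54877549 had 29.5 against 34.0 and 31.2 for its 2 THP-1 peaks. The THP-1 partner of the M2 peak at 54880204 to 54881374 could not be solved. Here THP-1 also had 2 peaks of its own, at 54888132 to 54888563 (4.53-fold) and 54889377 to 54889849 (4-fold), the first 1473 bp and the second 187 bp from an M2 peak.

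Further along, at 54959427 to 54961623, stood the M2 peak of highest -log10 q in the complex, 49.7, with 7.84-fold enrichment and a width of 2197 bp. Its THP-1 partner was 596 bp wide and 2.67-fold. At 54974294 to 54974936 a weak M2 peak of 3.48-fold overlapped a THP-1 peak of 1.68-fold, the lowest fold of the THP-1 peaks in the complex, and an M2 peak of 5.85-fold and 1050 bp followed at 54975328 to 54976377.

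A pair of THP-1 peaks had no M2 counterpart nearby. They lay at 55083474 to 55084087 and 55085341 to 55085750, 71192 and 69529 bp from the nearest M2 peak. The second was 6.62-fold enriched, the highest of the 18 THP-1 peaks in both clusters and higher than 94.5% of the THP-1 peaks of the chromosome, though only 410 bp wide. Its -log10 q was 10.0, and it rested on 18 fragments over the summit. In bins of 50 kb, 15 of 1114 on chromosome 19, outside its longest peak-free stretch, held THP-1 peaks and no M2 peak. The SIGLEC cluster had 0 such bins of 11 and the complex 1 of 19, and this was the place. It lies before the end of the LILR part, where M2 in turn had 2 peaks alone, 309 bp wide at 55155279 to 55155587 (5.21-fold) and 640 bp wide at 55174439 to 55175078 (5.25-fold).

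The start of the complex was nearly bare. Between 54540001 and 54873977 the M2 list held 2 peaks, at 54641480 to 54642090 (4.95-fold) and 54694021 to 54694475 (9.59-fold, 455 bp wide). THP-1 had 0 peaks from 54481267 to 54875355, a stretch of 394 kb that ranked 23 by length among the 1247 between THP-1 peaks on chromosome 19. In gene order PRPF31, a splicing factor, and RPS9, a ribosomal protein, precede the LILR genes and are used by most cells, but no position was available to set them against this stretch. That no peak is listed is not a measurement of a gene being off. Neither list held a peak between 54694476 and 54873977, a stretch of 179.5 kb.

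The KIR part was all but unmarked in both cell types. The M2 list had 1 peak there, at 55385175 to 55386135, 4.24-fold with a -log10 q of 6.72, and the THP-1 list 0. The stretch of the KIR part before this peak, 155 kb, was empty in both lists, and the peak lay 223413 bp from the nearest THP-1 peak. That M2 peak was assigned to no gene, and in gene order FCAR follows the KIR genes. No peak of either list was found from 55175079 to 55385174, 210.1 kb. By length this ranked 31 among the 2296 stretches between peaks of either list on chromosome 19. The KIR windows were also the most alike of the 3 families, as given above, and an absence of peaks there is an absence of placed, enriched reads.

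**Figure D3:**
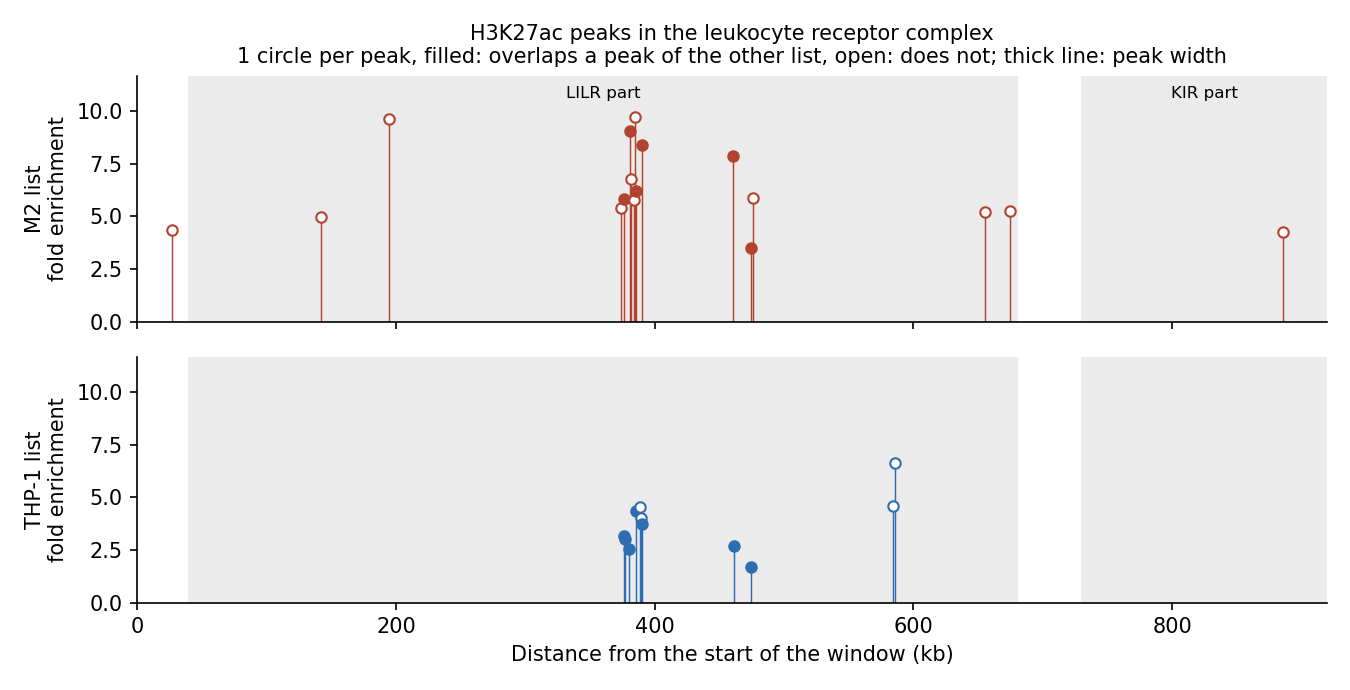
Fold enrichment of each H3K27ac peak (linear axis) against its distance in kb from the start of the leukocyte receptor complex window, M2 above and THP-1 below, with the LILR and KIR parts shaded and symbols as in the map of the SIGLEC cluster. Peaks of both lists gather in a run near the middle of the LILR part, the first portion holds 0 THP-1 peaks, and the KIR part holds 1 M2 peak.

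Empty stretches were compared with the chromosome in bins of 50 kb. Of the 19 bins of the complex, the last reaching past its end, 12 had no M2 peak, 16 no THP-1 peak and 11 no peak of either list. These are 63.2, 84.2 and 57.9%, beside a background of 36.4, 54.4 and 35.1% of 1114 bins on chromosome 19 outside its longest peak-free stretch. In the SIGLEC cluster 3 of 11 bins had no M2 peak, 9 no THP-1 peak and 3 neither, or 27.3, 81.8 and 27.3%. Bins empty of THP-1 peaks were thus frequent in both clusters, while bins empty of M2 peaks were frequent in the complex alone. With so few bins these shares are a description only.

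The peaks that the lists share were compared pair by pair, 7 pairs in the SIGLEC cluster and 7 in the complex, where 1 wide M2 peak counts in 2 pairs. The M2 peak had the higher fold in all 14 pairs. M2 fold was a median of 2.98 times THP-1 fold in the SIGLEC cluster and 2.07 times in the complex, against 2.26 times over 1103 pairs of chromosome 19, where M2 was higher in 990. The M2 peak was also the wider in 6 of 7 SIGLEC pairs and 5 of 7 pairs of the complex, with median width ratios of 2.15 and 1.89 and 1.73 on the chromosome.

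Fragments over the summit did not differ in the same way. Their number was solved for each peak out of its deposited fold and p and divided by the lowest background of its list, taken as the genome-wide level, so that the lists could be set side by side. Over the 7 SIGLEC pairs, M2 fragments were a median of 0.907 times those of THP-1 (range 0.508 to 1.5), with M2 higher in 3 of 7. The 5 pairs of the complex that could be solved had 0.934 (0.767 to 1.25), with M2 higher in 1. The chromosome had 1.00. At the strongest SIGLEC pair, 176 M2 fragments faced 90 THP-1 fragments, or 76.5 against 51.0 in units of the library background. At the pair of lowest M2 fold, at 51728291 in M2, 45 M2 fragments faced 68 in THP-1, or 19.6 against 38.5.

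The local background against which peaks were called ran opposite to the fold in these pairs, being higher in THP-1. In the SIGLEC pairs it was a median of 6.19 times the lowest of the list for M2 and 20.7 times for THP-1, higher in THP-1 in 7 of 7. In the 5 pairs of the complex solved in both lists the medians were 4.65 for M2 and 9.99 for THP-1, higher in THP-1 in 5 of 5. A higher THP-1 background was general to shared peaks, with medians of 4.65 for M2 and 9.99 for THP-1 over 1031 pairs of chromosome 19 and the higher value in THP-1 in 85.5% of them. THP-1 background was a median of 3.23 times that of M2 in the SIGLEC pairs and 2.23 times over the chromosome. At equal fragments, fold and -log10 q are lower by construction where the background is higher. The background of THP-1 at sites without a THP-1 peak cannot be recovered, and its part in the number of M2 peaks without a partner was not tested. The 24 solved M2-only peaks of the SIGLEC cluster had 14 to 127 fragments, or 6.08 to 55.2 times the library background with a median of 16.5, beside 17.4 for M2-only peaks of chromosome 19. The 7 THP-1 peaks there, all of them shared, stood at 26.1 to 70.8 times with a median of 44.8. The 7 shared M2 peaks there stood at 19.6 to 76.5 times with a median of 37.8. In the LILR part the 4 THP-1-only peaks had 12 to 26 fragments and a background of 1.06 to 2.78 times the lowest, with medians of 20 fragments and 1.87 times. THP-1-only peaks of chromosome 19 had medians of 27 fragments and 3.46 times, both below those of the shared THP-1 peaks there, 61 fragments and 10.3 times.

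**Figure D4:**
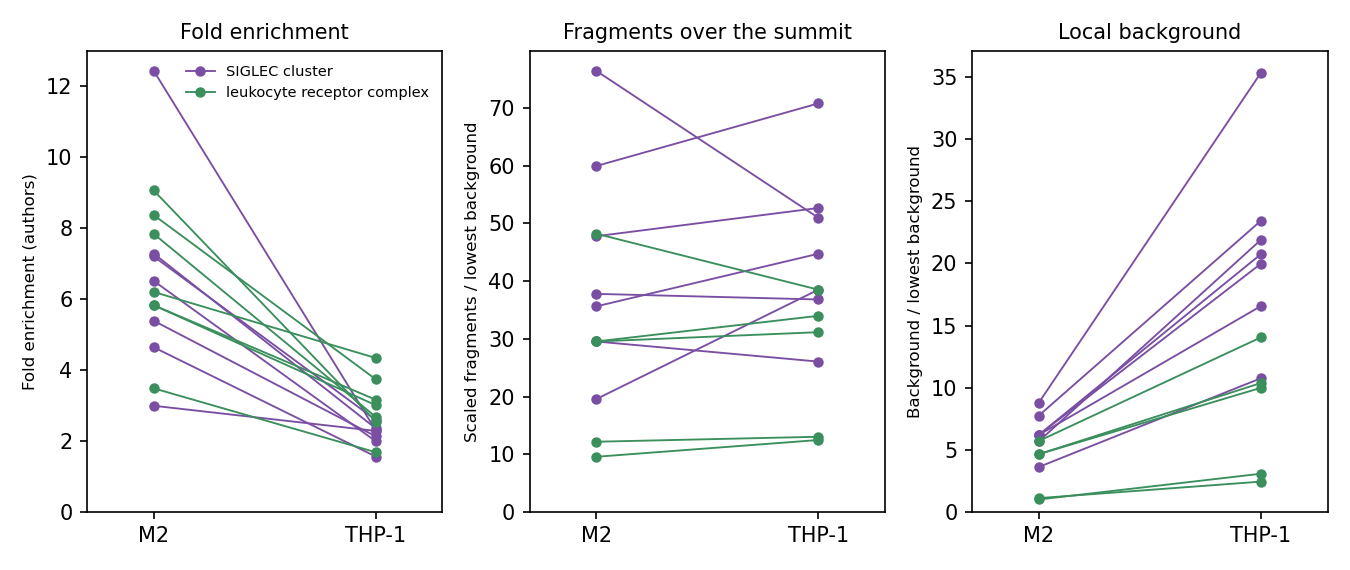
The 14 pairs of overlapping M2 and THP-1 peaks, each joined by a line, with M2 at the left of each panel: the authors' fold enrichment, the fragments over the summit in units of the lowest background of the library, and the local background in the same units (linear axes; pairs without a single solution are left out of the last 2 panels). Fold is higher in M2 in all 14 pairs, the ratio of fragments runs from 0.508 to 1.5 in the SIGLEC pairs, and background is higher in THP-1.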

How the data were processed

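Chromatin of M2 and THP-1 cells was fixed with formaldehyde, sonicated, precipitated and sequenced as paired reads of 150 bases, per the labels' protocols. Per the submitters' processing notes, the tools were Bowtie2 and MACS2 version 2.1.0 and the build hg19, with no settings given, and whether input served as control is not stated. The 2 peak lists have no header and were read in narrowPeak order. Fold enrichment is a ratio over local background that the authors deposited, as are the -log10 p-value and q-value and the score column, which repeats the -log10 q as a whole number and entered no value. The lowest -log10 q was 1.31 for M2 and 1.30 for THP-1. Peak numbers start at 2468 (M2) and 1253 (THP-1), and what the lower numbers were is not known. The Y chromosome was left out.

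Peaks were taken if 1 bp lay in a window, and sharing meant at least 1 bp in common (pandas 2.3.3, numpy 2.4.6). Runs join peaks within 10 kb. Fragments over summits were solved with scipy 1.17.1 from fold and p under the MACS2 formulas, with the M2 pileup scaled by 0.842 and THP-1 unscaled. A whole number, within 0.02, was found for 99.997% of the M2 list and 100% of the THP-1 list (typical other scales gave 5.67 and 8.33%), and a single one for 97.4% of peaks in M2 and 95.0% in THP-1. Median depth was 40 fragments over M2 and 39 over THP-1 summits, so most single peaks rest on few fragments. These numbers are inferred and are no counts of the authors. Both steps were tested on simulated data with known answers. Promoter windows were aligned with Biopython 1.88.

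Peaks were described in full where a window and list had at most 12, and otherwise by a fixed rule: the 6 of highest fold, the 4 widest and the 4 of highest fold in 1 list only. Some others are named as parts of runs or as partners. Members and windows were chosen with earlier results of these data known. Libraries of YY1 and input DNA were not analysed here.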

Additional observations from a re-analysis of the deposited data

How the results depend on the processing

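Of 62 values recomputed under other settings, 48 stayed within 1.5 times the reported one or, for shares, within its interval, and 14 did not. These intervals are wide, so that shares counted among the 48 could differ much. The shared M2 peaks of the complex, 35.3% as reported, were 17.6% when 50% of the peak had to be covered and 52.9% when a THP-1 peak within 1000 bp sufficed, and those of the SIGLEC cluster were 33.3% in the narrowed window. With lists of equal length, THP-1 peaks outnumbered M2 peaks in the complex. The SIGLEC cluster held 32 M2 peaks as reported, 19 with a -log10 q of at least 10, 19 with lists of equal length, 21 with the window narrowed by 50 kb and 19 with peaks within 1000 bp merged. Its THP-1 peaks, 7 as reported, were 1 at the stricter -log10 q and 4 when merged. Covered length, 9.64 times as great in M2 as in THP-1, became 66.6 times at the stricter -log10 q and 5.01 times in the narrowed window. The share of its M2 peaks that met a THP-1 peak, 21.9%, was 5.26% at the stricter -log10 q and 6.25% when 50% of the peak had to be covered. The narrowed window leaves out the first run of 11 M2 peaks by construction.

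The complex held 10 M2 and 11 THP-1 peaks with lists of equal length, against 17 and 11 as reported. At the stricter -log10 q its THP-1 peaks numbered 2, covered length was 7.13 times as great in M2 and 8.33% of M2 peaks overlapped a THP-1 peak, against 35.3% as reported. The cause of these shifts was not tested, but the stricter limit keeps 1462 of 2152 M2 and 566 of 1248 THP-1 peaks on chromosome 19. Summits rest on as few as 14 fragments in M2 and 12 in THP-1 within the clusters, so that weak sites may be missing from either list. No paired analysis was possible because each cell type has 1 library.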
